A study of Mus musculus with 8 samples.

Results

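Endothelial genes that answer to blood flow were followed in liver sinusoidal endothelial cells of mice given iron. The 9 genes are the Krüppel-like factors *Klf2*, *Klf4* and *Klf6*, the nitric oxide synthase *Nos3*, the peptide *Edn1* and its receptor *Ednrb*, the angiotensin-converting enzyme *Ace*, and the nuclear receptors *Nr4a1* and *Nr4a2*. They were chosen by symbol, each matched 1 of the 23930 targets in the count files, and all 9 passed the filter on low counts. The iron citrate group was 4 wild-type female Balb/c mice that received iron citrate (150 µg) into a vein, and the citrate buffer group was 4 such mice that received 0.05 M citrate buffer. The series' text calls the mice young and gives no exact age. Cells were sorted 5 h later as CD45-dim, STAB2-high and CD146-high, and 1 library was made per mouse. The study's design text speaks of 5 against 5 samples, and 4 libraries per group were used here. The series' title names p38, ETS1 and *Bmp6* as its subject.

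In endothelium, steady laminar flow acts through the kinases MEKK3, MEK5 and ERK5 on MEF2 factors, which switch on *Klf2* and *Klf4*. These factors raise *Nos3*, whose product makes the vasodilator nitric oxide, and lower *Edn1*, which encodes the vasoconstrictor endothelin-1. In the sinusoid, endothelin-1 contracts the neighbouring stellate cells, while its receptor EDNRB on endothelium is linked to nitric oxide release and clearance of the peptide. *Klf2*, *Klf4*, *Klf6*, *Nr4a1* and *Nr4a2* are also immediate-early genes that can be induced within minutes by tissue handling.

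Each library held 7969520 to 11314659 reads on targets. In this amplicon assay each gene is read through 1 short product, and levels are given as CPM (counts scaled to a common library size). Where genes are ranked or summed, the order and the sum are of CPM. A difference in CPM between genes need not be a difference in mRNA. The 13 markers of sinusoidal endothelium, among them *Clec4g* and *Oit3*, summed to 25280 to 27634 CPM in the iron citrate libraries, against 15790 CPM in citrate buffer replicate 1 and 24785 to 31398 CPM in citrate buffer replicates 2 to 4. Citrate buffer replicate 1 stood apart. It correlated with its group mates at a median r of 0.839, while the other libraries did so at 0.962 to 0.981, and 2.03% of its counts fell on 1053 olfactory receptor targets, against 0.247% to 0.518% in the iron citrate libraries and 0.354% to 0.827% in the other buffer libraries. The 9 genes and the counts of called genes in each list are therefore given with and without it. In bulk RNA, fewer cells of a type and less RNA per cell cannot be told apart.

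None of the 9 genes was called after iron citrate by edgeR's quasi-likelihood test at an adjusted p under 0.05, a threshold that 0.555% of the 14601 tested targets passed (0.527% higher and 0.0274% lower). Of the 9, 3 had an unadjusted p under 0.05, against 14.6% of all tested targets (6.57% higher and 8% lower), and these were *Klf6*, *Edn1* and *Ednrb*, each with the higher mean after iron citrate. DESeq2 called 2 of the 9, *Klf6* and *Edn1*, against 2.5% of all tested targets, and limma-voom called 0, against 1.98%. Across the 9 genes, 7 log2 fold changes were positive and 2 negative, and their median was 0.38, against -0.01 over all tested targets. In the same fit 8 of 10 targets of NRF2, the factor of the oxidative stress response, were called higher after iron citrate, namely *Hmox1*, *Gclm*, *Gclc*, *Txnrd1*, *Osgin1*, *Nqo1*, *Srxn1* and *Pir*.

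**Figure D1:**
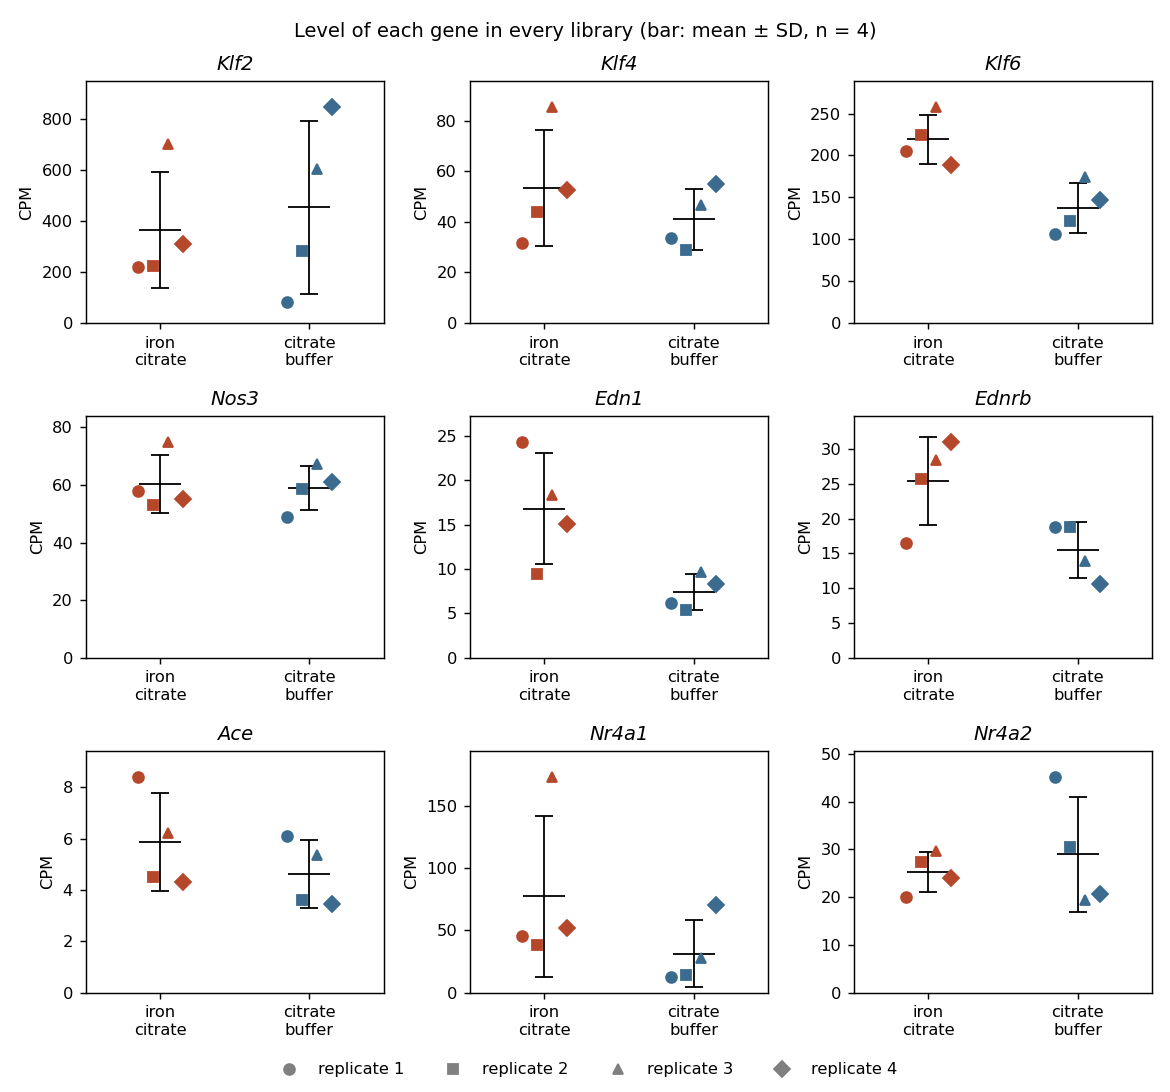
Level of each of the 9 genes in CPM (y axis, from 0) in every library of the iron citrate and citrate buffer groups (x axis), with symbols for replicate numbers and bars for the mean ± SD of 4 libraries. *Klf6* is the only panel in which the groups do not overlap, with all iron citrate libraries at or above 189 CPM and all buffer libraries at or below 174 CPM.

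**Figure D2:**
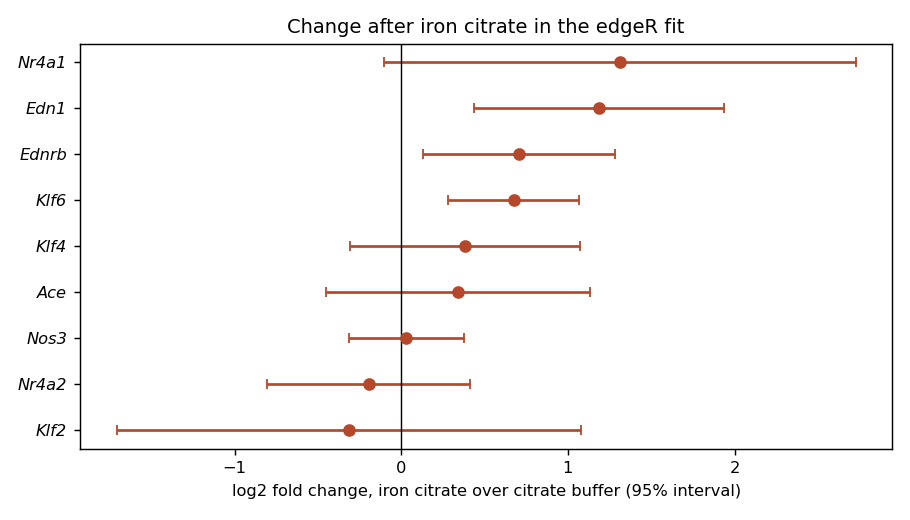
Log2 fold change of iron citrate over citrate buffer (x axis) with its 95% interval from the edgeR fit, 1 row per gene. The intervals of *Edn1*, *Ednrb* and *Klf6* lie above 0 before adjustment for the 14601 targets tested, and those of *Nos3* and *Klf6* are the narrowest.

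*Klf6*, a zinc finger factor of injured and activated endothelium, had the smallest p of the 9 genes. It stood at 205, 225, 258 and 189 CPM in iron citrate replicates 1 to 4, against 106, 122, 174 and 147 CPM in citrate buffer replicates 1 to 4. The lowest iron citrate library was above the highest buffer library, and *Klf6* was the only 1 of the 9 genes whose groups did not overlap, against 8.64% of all tested targets (6.36% with iron citrate higher and 2.29% with it lower). The means were 219 ± 29.9 CPM after iron citrate and 137 ± 29.7 CPM after buffer (SD, n = 4 each). Iron citrate over buffer, the log2 fold change was 0.67 (SE 0.18), with a 95% interval of 0.28 to 1.07 (edgeR adjusted p = 0.209). A two-sided exact permutation test of the difference in mean log2 CPM gave p = 0.0286, the smallest that 4 against 4 libraries allow. Without citrate buffer replicate 1 the log2 fold change was 0.57 (edgeR adjusted p = 0.0735), and DESeq2 gave 0.65 (adjusted p = 0.0238). The genes whose pattern over the 8 libraries was most like that of *Klf6* were *Eif2ak1*, the haem-regulated kinase of the initiation factor eIF2, and *Azin1*, an inhibitor of antizyme. Their root mean square distances from it were 0.089 and 0.094 on the mean-centred log2 CPM scale, against 0.41 for a flat profile.

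The bases before the *Klf6* start are shown because *Klf6* was the gene whose groups separated. The sequence is RefSeq's, from GRCm38.p6, chr13:5861239-5861488 on the plus strand, which is the 250 bases before the annotated start. Capitals mark a match to the core of the antioxidant response element bound by NRF2, TGACNNNGC, here on the minus strand from base -174 to base -166.
Klf6: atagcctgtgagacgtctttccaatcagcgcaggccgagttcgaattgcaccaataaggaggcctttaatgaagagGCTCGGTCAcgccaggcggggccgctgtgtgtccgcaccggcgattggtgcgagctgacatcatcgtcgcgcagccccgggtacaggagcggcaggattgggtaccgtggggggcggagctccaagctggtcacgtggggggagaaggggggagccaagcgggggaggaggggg
Both strands of 300-base windows, 250 bases before and 50 after each start, were searched, and 12.4% of the 32817 windows in the RefSeq table hold this core. The window holds no CACCC, the core recognised by Krüppel-like factors, which 57.5% of all windows hold. A match is a description of the letters and was not tested for binding.

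*Klf2*, the flow-induced factor that keeps endothelium quiescent, varied more between libraries than between groups. Its level was 221, 225, 703 and 311 CPM in iron citrate replicates 1 to 4, against 80.7, 283, 605 and 849 CPM in citrate buffer replicates 1 to 4. Replicate 3 stood high after iron citrate, replicates 3 and 4 stood high after buffer, and citrate buffer replicate 1 was lowest of all, so the groups overlapped over most of their range. The means were 365 ± 229 CPM after iron citrate and 454 ± 340 CPM after buffer (SD, n = 4 each). On the log2 scale the fold change was -0.32 (SE 0.62), with a 95% interval of -1.71 to 1.08, which includes 2-fold changes in both directions (edgeR adjusted p = 0.808). The exact permutation test gave p = 1. Without citrate buffer replicate 1 the log2 fold change was -0.66 (edgeR adjusted p = 0.636), and without citrate buffer replicate 4 it was 0.18 (adjusted p = 0.878).

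*Klf4*, which shares targets with KLF2 in flow-exposed endothelium, had 31.7, 44.0, 85.5 and 52.6 CPM in iron citrate replicates 1 to 4, against 33.7, 28.7, 46.8 and 55.0 CPM in citrate buffer replicates 1 to 4. As for *Klf2*, iron citrate replicate 3 was the highest library of its group and citrate buffer replicates 3 and 4 were the highest of theirs. The log2 fold change was 0.38 (SE 0.31, edgeR adjusted p = 0.502), and the exact permutation test gave p = 0.457. Without iron citrate replicate 3 it was 0.06 (edgeR adjusted p = 0.941), and without citrate buffer replicate 1 it was 0.30 (adjusted p = 0.686).

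The orphan nuclear receptor *Nr4a1* (NUR77), an immediate-early gene of activated endothelium and leukocytes, had the widest range of the 9 genes, 13.4-fold between the highest and the lowest library. It stood at 45.2, 38.5, 173 and 52.1 CPM in iron citrate replicates 1 to 4, against 13.0, 14.5, 27.7 and 70.4 CPM in citrate buffer replicates 1 to 4. Iron citrate replicate 3 was far above its group, and citrate buffer replicate 4 was above the 3 other iron citrate libraries. The means were 77.3 ± 64.3 CPM after iron citrate and 31.4 ± 26.8 CPM after buffer (SD, n = 4 each), which is 1.31 on the log2 scale (SE 0.63, edgeR adjusted p = 0.333). Its 95% interval, -0.10 to 2.73, was the widest of the 9 genes, and the exact permutation test gave p = 0.143. On the log2 scale the fold change was 0.53 without iron citrate replicate 3 (edgeR adjusted p = 0.693) and 2.07 without citrate buffer replicate 4 (adjusted p = 0.158). Leaving out citrate buffer replicate 1 gave 1.06 (edgeR adjusted p = 0.611).

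*Klf2*, *Klf4* and *Nr4a1* shared their high libraries. All 3 were highest in iron citrate replicate 3 among the iron citrate libraries and in citrate buffer replicate 4 among the buffer libraries. *Klf6*, *Nos3* and *Nr4a2* were also highest in iron citrate replicate 3 of that group, but not in citrate buffer replicate 4 of theirs. Over all tested targets, deviations of iron citrate replicate 3 from its group mean correlated with those of citrate buffer replicates 3 and 4, at 0.61 and 0.55. The share of all targets with the pattern of these genes was not computed. The profile nearest to *Nr4a1* was that of the salt-inducible kinase *Sik1*, a cyclic AMP-responsive gene, at a distance of 0.35, followed by the AP-1 factor *Fosl2* at 0.40, against 1.13 for a flat profile. *Sik1* stood at 39.1, 40.9, 153 and 43.5 CPM in iron citrate replicates 1 to 4, against 9.62, 24.97, 28.9 and 78.1 CPM in citrate buffer replicates 1 to 4. These are the same high libraries as for *Nr4a1*. For *Klf2* the nearest profiles were *Nuak2*, an AMPK-related kinase, and *Sema4c*, a semaphorin (distances 0.33 and 0.36, against 1.04 for a flat profile). For *Klf4* they were *Id1*, a BMP-responsive inhibitor of helix-loop-helix factors, and *Msh6*, a mismatch repair protein (0.16 and 0.18, against 0.48 for a flat profile). These distances were the smallest among 11678 targets with a mean of at least 5 CPM, over 8 libraries that share their depth and sorting, and they carry no test.

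**Figure D3:**
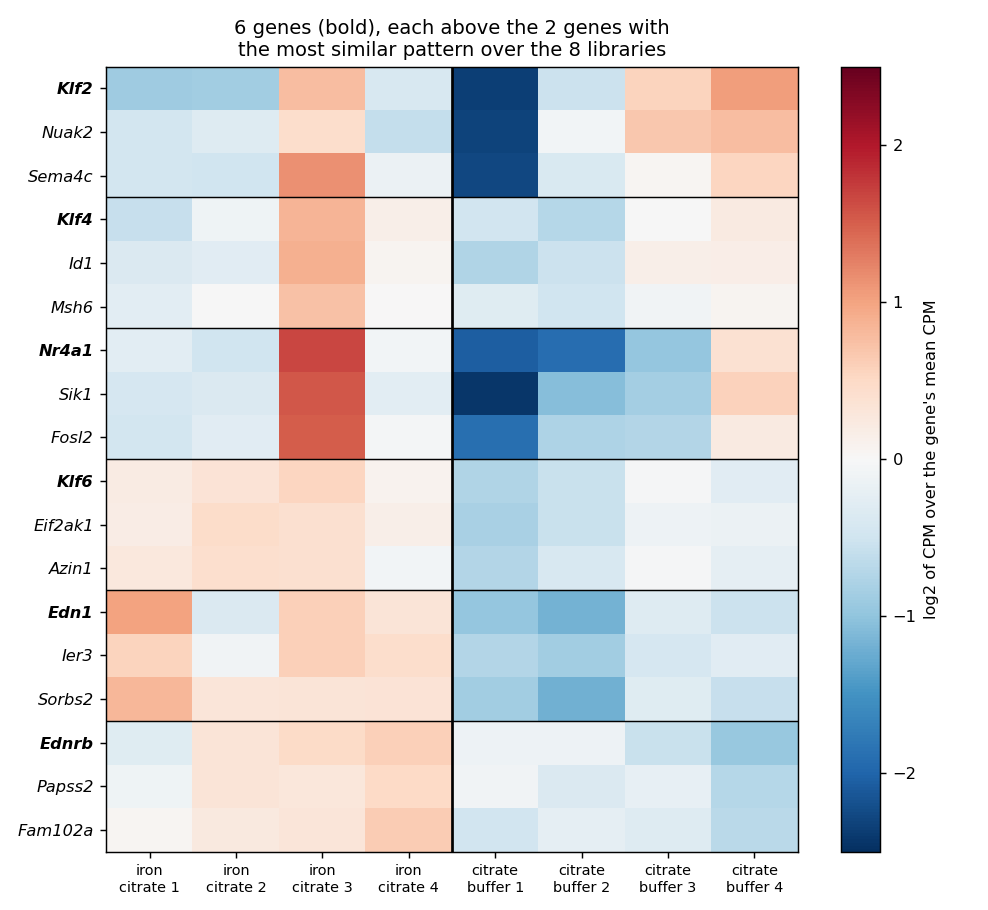
Log2 of CPM over the gene's own mean CPM (colour) in the iron citrate and citrate buffer libraries (columns) for 6 of the genes, in bold, each above the 2 genes with the nearest pattern. *Nr4a1*, *Sik1* and *Fosl2* are highest in iron citrate replicate 3 and lowest in citrate buffer replicate 1, while *Klf6* and its 2 neighbours are lower in citrate buffer replicates 1 and 2 than in any iron citrate library.

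The promoters of *Klf2* and *Nr4a1* are shown because both genes were highest in the same libraries of each group. *Klf2* is given as chr8:72318812-72319061 and *Nr4a1* as chr15:101266596-101266845, both on the plus strand of GRCm38.p6 and from RefSeq, and each is the 250 bases before the start. In *Klf2* the capitals mark, in order, the core of the cyclic AMP response element (TGACG, bases -241 to -237), a MEF2 site (bases -118 to -109) and a CACCC core on the minus strand (bases -19 to -15). In *Nr4a1* they mark 4 copies of TGACG, all on the minus strand.
Klf2: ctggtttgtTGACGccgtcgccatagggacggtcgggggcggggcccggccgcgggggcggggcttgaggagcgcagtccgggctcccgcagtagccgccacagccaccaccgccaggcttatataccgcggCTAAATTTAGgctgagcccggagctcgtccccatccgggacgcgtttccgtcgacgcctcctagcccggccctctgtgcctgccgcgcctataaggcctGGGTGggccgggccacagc
Nr4a1: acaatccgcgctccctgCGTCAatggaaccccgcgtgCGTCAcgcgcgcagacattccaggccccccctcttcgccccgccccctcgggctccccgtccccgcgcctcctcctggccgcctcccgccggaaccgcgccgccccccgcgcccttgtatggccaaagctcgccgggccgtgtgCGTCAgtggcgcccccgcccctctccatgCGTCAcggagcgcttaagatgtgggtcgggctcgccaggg
*Klf2* was the only 1 of the 8 genes with a RefSeq window that held the MEF2 form, which 3.69% of all windows hold. TGACG was held by 5 of the 8 genes, against 20.8% of all windows, with *Nr4a1* and *Nr4a2* holding 4 copies each, and CACCC by 5 of the 8. The shares over all windows were not matched for base content. In the 250 bases before the start, G and C made up 71.2% in *Klf2*, 74% in *Klf4*, 56.8% in *Ednrb*, 74.4% in *Nr4a1* and 80% in *Nr4a2*. These are the genes with TGACG, and the median over all windows was 52.4%. *Ace* has more than 1 window and was counted as 1 gene. The full element TGACGTCA, the AP-1 form TGANTCA and the NR4A element AAAGGTCA were found in 0 of the 8. No match says only that these letters are not in this window.

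*Nr4a2* (NURR1), the paralogue of *Nr4a1*, had another order of libraries. It had 20.0, 27.4, 29.7 and 23.98 CPM in iron citrate replicates 1 to 4, against 45.2, 30.6, 19.3 and 20.7 CPM in citrate buffer replicates 1 to 4. Its highest library was citrate buffer replicate 1, in which *Nr4a1* and *Klf2* were lowest. Iron citrate over buffer, the log2 fold change was -0.20 (SE 0.27, edgeR adjusted p = 0.719), and 0.10 without citrate buffer replicate 1 (adjusted p = 0.839). The nearest profile was that of *Slc11a1*, the phagosomal metal transporter of macrophages, at a distance of 0.078, followed by *Plekhm2*, a lysosome-positioning adaptor, at 0.089, against 0.38 for a flat profile. In citrate buffer replicate 1 the 7 measured neutrophil markers summed to 451 CPM, against 242 to 270 CPM in the iron citrate libraries and 127 to 177 CPM in citrate buffer replicates 2 to 4. The 7 measured T and NK cell markers summed to 850 CPM there, against 470 to 559 CPM in the iron citrate libraries and 381 to 612 CPM in the other buffer libraries. By mean level *S100a9* and *Ngp* led the neutrophil markers and *Cd3e* and *Nkg7* those of T and NK cells, and none of these 14 was at 0 in all libraries. The T and NK cell markers did not rise together in citrate buffer replicate 1. *Nkg7* (300 CPM) and *Ncr1* (235 CPM) were highest there. *Cd3e*, at 231 CPM, was below iron citrate replicate 2 at 237 CPM, and *Cd4*, at 21.3 CPM, was at its lowest. Kupffer cell and macrophage markers summed to 1004 CPM in citrate buffer replicate 1, against 643 to 1127 CPM in all other libraries. Of these, *Lyz2* was highest there (952 CPM), while *Vsig4* (22.95 CPM), *Clec4f* (5.9 CPM) and *C1qb* (4.38 CPM) were lowest there. The B cell markers had their lowest sum there, 31.05 CPM, against 64.5 to 127 CPM in all other libraries. The part of these cell types in the *Nr4a2* level was not tested.

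The 9 genes differed widely in their spread within a group. The SD of log2 CPM of *Klf2* was 0.78 among the iron citrate libraries and 1.505 among the buffer libraries, and that of *Nr4a1* was 0.99 among the iron citrate libraries and 1.11 among the buffer libraries. Among all tested targets these lie at percentile 97.8 after iron citrate and 99.7 after buffer for *Klf2*, and at 99.4 after iron citrate and 92.7 after buffer for *Nr4a1*. The corresponding medians over all tested targets were 0.23 after iron citrate and 0.45 after buffer. Without citrate buffer replicate 1 the buffer SD was 0.81 for *Klf2* and 1.14 for *Nr4a1*, against a median of 0.27, so the spread of both did not rest on that library alone. *Nos3* had an SD of 0.22 after iron citrate, close to the median of all targets, and 0.19 after buffer, the smallest of the 9 genes there. After iron citrate the smallest was that of *Klf6*, at 0.19.

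**Figure D4:**
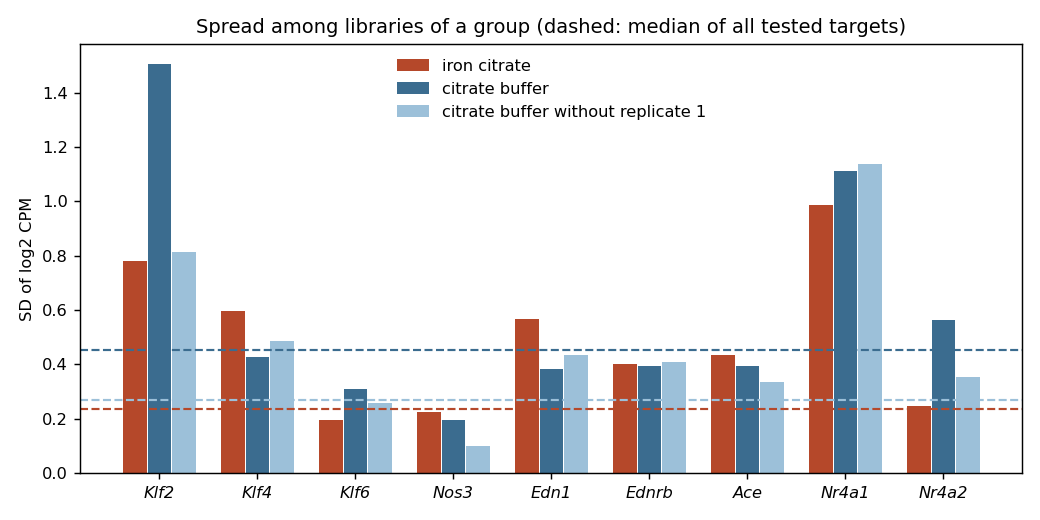
SD of log2 CPM (y axis) of each gene among the iron citrate libraries, the citrate buffer libraries and the buffer libraries without replicate 1, with dashed lines for the median of all tested targets in the same libraries. *Klf2* and *Nr4a1* lie far above the medians in all 3 sets, and *Nos3* lies below them, after iron citrate by little.

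Values of 22 immediate-early and dissociation-stress genes were set beside these, since cell isolation can induce them. None was called (0 of 22 by edgeR), and their median log2 fold change was 0.17. Of the 22, 3 had an unadjusted p under 0.05, against 14.6% of all tested targets. The 3 went in both directions. *Ier3* averaged 26.2 ± 5.17 CPM after iron citrate and 13.5 ± 2.52 CPM after buffer (edgeR adjusted p = 0.137), and the growth regulator *Myc* 53.9 ± 9.84 CPM after iron citrate and 39.4 ± 8.15 CPM after buffer (adjusted p = 0.333). *Egr1*, a zinc finger factor also induced by flow, averaged 214 ± 116 CPM after iron citrate and 447 ± 145 CPM after buffer (edgeR adjusted p = 0.333). Of the 22, 1 was called without citrate buffer replicate 1, *Ier3* (log2 fold change 0.91, edgeR adjusted p = 0.0336), in a fit that called 259 of 14701 tested targets. The sum of the 22 was 3291, 3722, 4474 and 4705 CPM in iron citrate replicates 1 to 4, against 3037, 3863, 3785 and 4022 CPM in citrate buffer replicates 1 to 4. The groups overlapped, and iron citrate replicate 4 was the highest in this sum. Taken gene by gene, 9 of the 22 were highest in iron citrate replicate 3 among the iron citrate libraries, as *Klf2*, *Klf4* and *Nr4a1* were, and 7 in replicate 4. The share of all targets highest in each library was not computed. *Fosl2* stood at 116, 132, 457 and 156 CPM in iron citrate replicates 1 to 4, against 43.6, 93.4, 97.0 and 187 CPM in citrate buffer replicates 1 to 4. *Junb*, another AP-1 factor, stood at 272, 269, 446 and 281 CPM in iron citrate replicates 1 to 4, against 154, 227, 292 and 325 CPM in citrate buffer replicates 1 to 4. Both were highest in the same libraries as *Nr4a1*. *Jun* averaged 1094 ± 154 CPM after iron citrate and 934 ± 42.0 CPM after buffer (edgeR adjusted p = 0.391), *Zfp36*, an RNA-binding protein that destabilises cytokine mRNA, 717 ± 193 CPM after iron citrate and 571 ± 124 CPM after buffer (adjusted p = 0.427), and the phosphatase *Dusp1* 521 ± 52.3 CPM after iron citrate and 486 ± 45.7 CPM after buffer (adjusted p = 0.704). The part of cell handling in the spread of *Klf2* and *Nr4a1* was not tested.

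Endothelial nitric oxide synthase, *Nos3*, had the smallest fold change of the 9 genes. It stood at 57.8, 53.1, 75.01 and 55.1 CPM in iron citrate replicates 1 to 4, against 48.8, 58.7, 67.3 and 61.2 CPM in citrate buffer replicates 1 to 4. The groups overlapped, and replicate 3 was the highest library in both. The means were 60.3 ± 10.02 CPM after iron citrate and 59.0 ± 7.73 CPM after buffer (SD, n = 4 each). The log2 fold change was 0.03 (SE 0.16), with a 95% interval of -0.32 to 0.38 (edgeR adjusted p = 0.931, exact permutation p = 0.886), and its sign turned with the scaling, to -0.07 with library totals and -0.08 with upper-quartile factors, and was -0.05 without citrate buffer replicate 1. *Rxrb*, a retinoid X receptor, was among the nearest profiles (distance 0.056, against 0.18 for a flat profile). *Nos1* and *Nos2*, the neuronal and inducible synthases, had under 1 CPM in every library.

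Of 20 measured genes of nitric oxide synthesis and its control 18 were tested, and 0 were called by edgeR (0 also at an unadjusted p under 0.05), with a median log2 fold change of -0.07. *Hsp90ab1*, a chaperone that activates the synthase, averaged 2371 ± 235 CPM after iron citrate and 1962 ± 402 CPM after buffer (SD, n = 4 each, edgeR adjusted p = 0.396), and the activating kinase *Akt1* 330 ± 33.5 CPM after iron citrate and 274 ± 105 CPM after buffer (adjusted p = 0.615). *Cav1*, the caveolar inhibitor of the synthase, averaged 157 ± 22.2 CPM after iron citrate and 173 ± 22.0 CPM after buffer (adjusted p = 0.620), and the reductase *Cyb5r3* 159 ± 24.1 CPM after iron citrate and 133 ± 56.1 CPM after buffer (adjusted p = 0.661). The groups overlapped in all 4 genes, in *Hsp90ab1* through citrate buffer replicate 1 at 2564 CPM. Its iron citrate libraries spanned 2074 to 2637 CPM and citrate buffer replicates 2 to 4 spanned 1735 to 1784 CPM. Without citrate buffer replicate 1 its log2 fold change was 0.43 (edgeR adjusted p = 0.125), and those of *Akt1* and *Cyb5r3* were 0.03 and 0.01, against 0.26 and 0.25 with it. Of the 18 genes 0 were called without that library and 2 had an unadjusted p under 0.05. Of 10 tested genes of cyclic GMP signalling, through which nitric oxide acts, 0 were called, with and without citrate buffer replicate 1. Of the 10, 2 had an unadjusted p under 0.05, against 14.6% of all tested targets. These were *Prkg1*, the cyclic GMP-dependent kinase, at 26.4 ± 4.57 CPM after iron citrate and 16.4 ± 4.28 CPM after buffer (log2 fold change 0.69, edgeR adjusted p = 0.333), and *Gucy1a2*, a guanylyl cyclase subunit, at 11.1 ± 1.70 CPM after iron citrate and 6.55 ± 1.47 CPM after buffer (0.77, adjusted p = 0.333). In both, every iron citrate library lay above every buffer library, as in 6.36% of all tested targets. The phosphodiesterase *Pde2a* averaged 1077 ± 115 CPM after iron citrate and 1032 ± 500 CPM after buffer (edgeR adjusted p = 0.940, log2 fold change 0.06, and -0.22 without citrate buffer replicate 1), the natriuretic peptide receptor *Npr1* 608 ± 47.9 CPM after iron citrate and 618 ± 228 CPM after buffer (adjusted p = 0.969), and *Vasp*, a substrate of the cyclic GMP-dependent kinase, 167 ± 25.7 CPM after iron citrate and 168 ± 43.1 CPM after buffer (adjusted p = 0.989).

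*Edn1*, the endothelin-1 gene, had few reads in both groups, with 82 to 249 per library after iron citrate and 63 to 109 after buffer. It stood at 24.3, 9.45, 18.4 and 15.1 CPM in iron citrate replicates 1 to 4, against 6.19, 5.34, 9.71 and 8.35 CPM in citrate buffer replicates 1 to 4. Of the iron citrate libraries 3 were above all buffer libraries, and iron citrate replicate 2 lay just under citrate buffer replicate 3. The means were 16.8 ± 6.23 CPM after iron citrate and 7.40 ± 1.99 CPM after buffer (SD, n = 4 each), which is 1.19 on the log2 scale (SE 0.34) with a 95% interval of 0.44 to 1.93. The edgeR adjusted p was 0.264 and the exact permutation p was 0.0571. With DESeq2 the log2 fold change was 1.16 (adjusted p = 0.032), and without citrate buffer replicate 1 the edgeR value was 1.11 (adjusted p = 0.0928). The nearest profiles were *Ier3*, a stress-induced survival gene, and *Sorbs2*, a cytoskeletal adaptor, at distances of 0.24 and 0.26 against 0.70 for a flat profile, and in both of these genes the iron citrate libraries lay above all buffer libraries.

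The *Edn1* promoter is shown beside that of *Klf6* because both hold the antioxidant response core and both genes had an unadjusted p under 0.05. It is RefSeq's chr13:42301226-42301475 on the plus strand of GRCm38.p6, the 250 bases before the start. Capitals mark CACCC on the minus strand (bases -197 to -193), which overlaps TGACNNNGC on the plus strand (bases -194 to -186), and a second CACCC on the minus strand (bases -84 to -80).
Edn1: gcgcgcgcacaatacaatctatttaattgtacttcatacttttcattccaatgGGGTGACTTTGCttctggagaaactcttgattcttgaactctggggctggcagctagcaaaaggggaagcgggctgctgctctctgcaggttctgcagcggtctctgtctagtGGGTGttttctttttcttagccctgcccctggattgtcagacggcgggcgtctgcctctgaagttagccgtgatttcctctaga
The core TGACNNNGC was held by 3 of the 8 genes, *Klf6*, *Edn1* and *Nr4a2*, against 12.4% of all windows, and *Nr4a2* did not share the higher mean of the other 2. *Ednrb*, whose unadjusted p was also under 0.05, does not hold it. A part of NRF2 in the level of these genes was not tested.

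The endothelin B receptor, *Ednrb*, stood at 16.5, 25.7, 28.5 and 31.0 CPM in iron citrate replicates 1 to 4, against 18.9, 18.8, 13.9 and 10.6 CPM in citrate buffer replicates 1 to 4. Of the iron citrate libraries 3 were above all buffer libraries and replicate 1 lay under citrate buffer replicates 1 and 2. The means were 25.4 ± 6.33 CPM after iron citrate and 15.5 ± 4.03 CPM after buffer (SD, n = 4 each). Iron citrate over buffer, the log2 fold change was 0.71 (SE 0.26), with a 95% interval of 0.13 to 1.28 (edgeR adjusted p = 0.333, exact permutation p = 0.0857). Without citrate buffer replicate 1 it was 0.81 (edgeR adjusted p = 0.118), and it was called, at 1.04, when citrate buffer replicate 2 was left out as well (adjusted p = 0.0226). That last fit called 281 of 14828 tested targets. Other settings took the unadjusted edgeR p of *Ednrb* above 0.05. It was 0.071 with library totals, 0.072 with upper-quartile factors, 0.053 without iron citrate replicate 3 and 0.067 without iron citrate replicate 4, against 0.021 in the main fit. *Ednrb* is also known from stellate cells. The 11 measured markers of stellate cells, fibroblasts and smooth muscle, led by *Dcn* and *Rgs5*, summed to 461 to 690 CPM in the iron citrate libraries and 286 to 693 CPM in the buffer libraries, 0 of 10 tested were called, none was at 0 in all libraries, and their part in the *Ednrb* level was not tested. Nearest in pattern were *Papss2*, an enzyme of sulfate activation, and *Fam102a* (distances 0.19 and 0.22, against 0.49 for a flat profile).

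Around this pair, 8 other genes of the endothelin system were measured, 4 were tested and 0 were called, with and without citrate buffer replicate 1. Of the 4, *Ece2* had an unadjusted p under 0.05, against 14.6% of all tested targets. The converting enzyme *Ece1*, which cuts the precursor to endothelin-1, averaged 8.21 ± 1.76 CPM after iron citrate and 7.89 ± 3.82 CPM after buffer (edgeR adjusted p = 0.950), and the receptor *Ednra* 3.04 ± 1.177 CPM after iron citrate and 3.17 ± 0.60 CPM after buffer (adjusted p = 0.943). *Ece2*, a related protease, averaged 4.99 ± 1.04 CPM after iron citrate and 11.2 ± 8.55 CPM after buffer (adjusted p = 0.333), and *Ecel1* 1.116 ± 0.75 CPM after iron citrate and 2.90 ± 2.73 CPM after buffer (adjusted p = 0.336). In both, citrate buffer replicate 1 was the highest library, at 23.6 and 6.95 CPM. The neprilysin gene *Mme*, *Edn2*, *Edn3* and *Kel* were too low to be tested.

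*Ace*, which makes angiotensin II and breaks down bradykinin, was the lowest in counts of the 9 genes, with 39 to 86 reads per library after iron citrate and 26 to 64 after buffer. It had 8.41, 4.49, 6.20 and 4.32 CPM in iron citrate replicates 1 to 4, against 6.09, 3.59, 5.34 and 3.45 CPM in citrate buffer replicates 1 to 4. The groups overlapped, with replicate 1 highest in both. On the log2 scale the fold change was 0.34 (SE 0.36), with a 95% interval of -0.45 to 1.13 (edgeR adjusted p = 0.619, exact permutation p = 0.286). At this depth the interval includes both no change and a 2-fold higher level, and leaving out 1 library gave log2 fold changes of 0.11 without iron citrate replicate 1 (edgeR adjusted p = 0.914) to 0.50 without citrate buffer replicate 1 (adjusted p = 0.557). Nearest in pattern were *Sorl1*, a sorting receptor, and the tetraspanin *Tspan32* (distances 0.18 and 0.19, against 0.39 for a flat profile). Of 14 measured genes of the renin-angiotensin and kinin system 8 were tested and 0 were called, with and without citrate buffer replicate 1. *Atp6ap2* and *Bdkrb1* had an unadjusted p under 0.05, against 14.6% of all tested targets. *Enpep*, which breaks down angiotensin II, averaged 297 ± 40.0 CPM after iron citrate and 298 ± 58.9 CPM after buffer (edgeR adjusted p = 0.987), *Atp6ap2*, the prorenin receptor, 166 ± 13.1 CPM after iron citrate and 125 ± 29.9 CPM after buffer (adjusted p = 0.333), and *Lnpep*, a peptidase that binds angiotensin IV, 109 ± 11.8 CPM after iron citrate and 106 ± 30.2 CPM after buffer (adjusted p = 0.910). The bradykinin receptor *Bdkrb1* averaged 12.9 ± 1.59 CPM after iron citrate and 26.9 ± 19.9 CPM after buffer (adjusted p = 0.333) and the peptidase *Anpep* 11.1 ± 1.58 CPM after iron citrate and 15.9 ± 9.72 CPM after buffer (adjusted p = 0.446), both with citrate buffer replicate 1 highest, at 55.0 and 30.5 CPM.

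Upstream of *Klf2*, 14 genes of flow sensing and of the MEKK3, MEK5, ERK5 and MEF2 route were tested and 0 were called by edgeR, with a median log2 fold change of 0.26. The 2 at an unadjusted p under 0.05 were *Mef2a*, at 326 ± 21.2 CPM after iron citrate and 232 ± 31.0 CPM after buffer (edgeR adjusted p = 0.241), and *Heg1*, a junctional receptor, at 299.95 ± 28.1 CPM after iron citrate and 201 ± 63.0 CPM after buffer (adjusted p = 0.333). Over all tested targets 14.6% had an unadjusted p under 0.05. Leaving out citrate buffer replicate 1 gave 0 calls and a median of 0.12. The most abundant were the junctional flow sensors. *Kdr*, a VEGF receptor, averaged 2147 ± 311 CPM after iron citrate and 2015 ± 965 CPM after buffer (edgeR adjusted p = 0.905, log2 fold change 0.09, and -0.18 without citrate buffer replicate 1), *Pecam1* 2008 ± 139 CPM after iron citrate and 2038 ± 236 CPM after buffer (adjusted p = 0.951) and *Cdh5*, which encodes VE-cadherin, 1330 ± 72.5 CPM after iron citrate and 1108 ± 144 CPM after buffer (adjusted p = 0.345). In *Cdh5* the iron citrate libraries lay above all buffer libraries, as in 3 of the 14 genes, against 6.36% of all tested targets. Downstream, 13 of 16 measured targets of KLF2 and KLF4 were tested, 0 were called (0 at an unadjusted p under 0.05) and the median log2 fold change was -0.09. Leaving out citrate buffer replicate 1 gave 0 calls, 3 at an unadjusted p under 0.05 and a median of -0.14. The angiopoietin receptor *Tek* averaged 591 ± 51.0 CPM after iron citrate and 669 ± 130 CPM after buffer (edgeR adjusted p = 0.571), the sphingosine-1-phosphate receptor *S1pr1* 711 ± 215 CPM after iron citrate and 510 ± 279 CPM after buffer (adjusted p = 0.494), and the diaphragm protein *Plvap*, of fenestrae and caveolae, 523 ± 74.6 CPM after iron citrate and 596 ± 188 CPM after buffer (adjusted p = 0.691).

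Of the other 14 Krüppel-like factors 12 were tested and 0 were called by edgeR, while 4 had an unadjusted p under 0.05, against 14.6% of all tested targets. *Klf10*, a TGF-beta-induced factor, stood at 159, 119, 196 and 144 CPM in iron citrate replicates 1 to 4, against 109, 86.6, 85.1 and 97.1 CPM in citrate buffer replicates 1 to 4. It was the only 1 of the 12 whose groups did not overlap (log2 fold change 0.71, edgeR adjusted p = 0.147), and the only 1 called without citrate buffer replicate 1 (0.79, adjusted p = 0.0152). Over all tested targets the groups did not overlap in 8.64%, with iron citrate higher in 6.36%. The fit without citrate buffer replicate 1 called 259 of 14701 tested targets. *Klf9*, which glucocorticoids induce, averaged 408 ± 119 CPM after iron citrate and 201 ± 98.0 CPM after buffer (log2 fold change 1.02, edgeR adjusted p = 0.333). Citrate buffer replicate 1 was its lowest library, at 90.7 CPM. *Klf17*, the only 1 of the 4 that was lower, averaged 4.83 ± 0.58 CPM after iron citrate and 10.9 ± 7.56 CPM after buffer (log2 fold change -1.17, edgeR adjusted p = 0.333). Citrate buffer replicate 1 was its highest library, at 21.3 CPM, and without it the log2 fold change was -0.62. *Klf3*, a repressor, averaged 252 ± 47.3 CPM after iron citrate and 186 ± 38.1 CPM after buffer (adjusted p = 0.333), *Klf7* 343 ± 75.1 CPM after iron citrate and 392 ± 66.7 CPM after buffer (adjusted p = 0.594) and *Klf13* 156 ± 28.0 CPM after iron citrate and 143 ± 18.8 CPM after buffer (adjusted p = 0.698).

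Among 14 other tested genes of vasoactive mediators and their receptors 0 were called by edgeR. The 2 at an unadjusted p under 0.05 were *Tbxas1*, thromboxane synthase, at 6.49 ± 1.42 CPM after iron citrate and 2.40 ± 1.43 CPM after buffer (edgeR adjusted p = 0.333), and the adenosine receptor *Adora2a*, at 28.8 ± 4.30 CPM after iron citrate and 42.0 ± 12.3 CPM after buffer (adjusted p = 0.333). Over all tested targets 14.6% had an unadjusted p under 0.05. *Adora2a* was called lower without citrate buffer replicate 1 (log2 fold change -0.73, edgeR adjusted p = 0.0172). That fit called 259 of 14701 tested targets, 38 of them lower. *Calcrl*, the receptor of adrenomedullin, averaged 1241 ± 148 CPM after iron citrate and 1058 ± 136 CPM after buffer (edgeR adjusted p = 0.413), and its partner *Ramp2* 383 ± 34.0 CPM after iron citrate and 476 ± 87.7 CPM after buffer (adjusted p = 0.336).

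**Figure D5:**
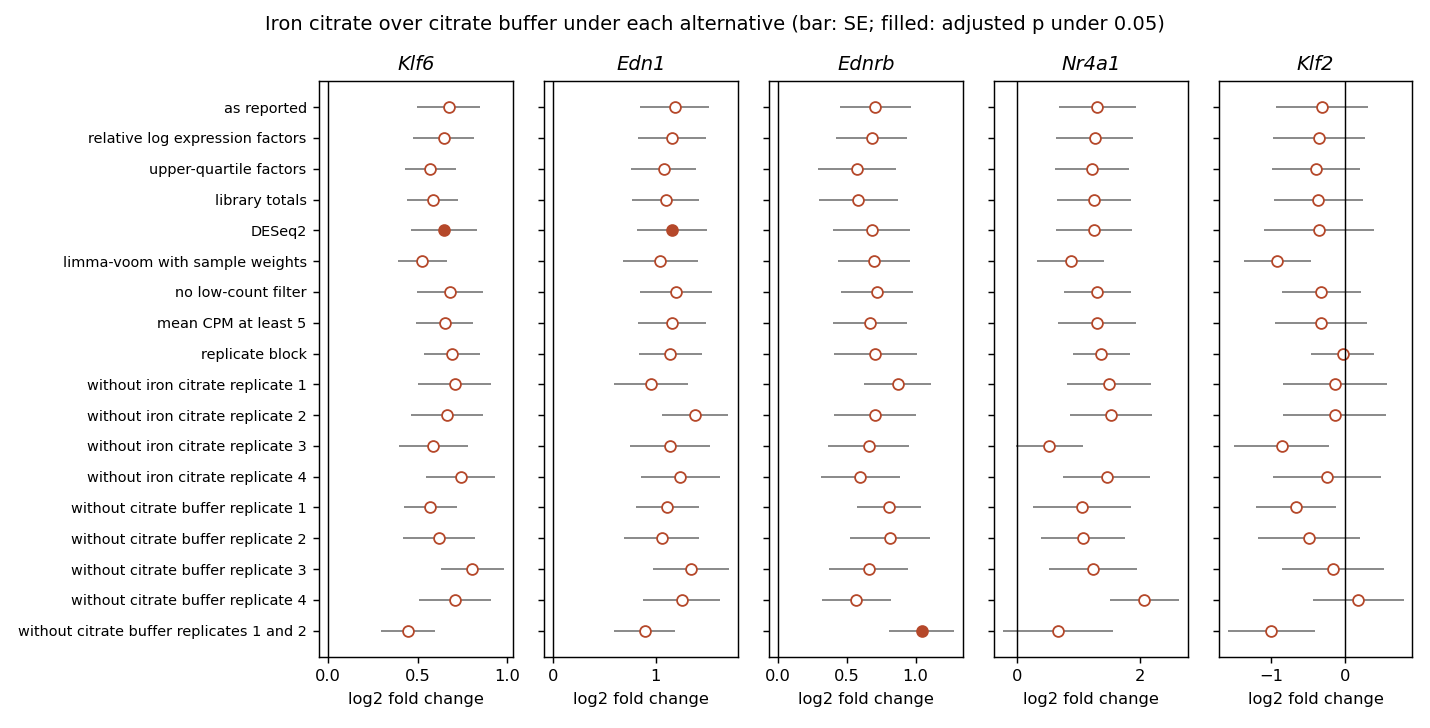
Log2 fold change of iron citrate over citrate buffer (x axis, bars for the SE) of 5 genes as reported and under 17 alternatives (rows), with filled points for an adjusted p under 0.05. Filled points appear for *Klf6* and *Edn1* with DESeq2 and for *Ednrb* without citrate buffer replicates 1 and 2, and *Klf2* crosses 0 without citrate buffer replicate 4.

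Markers of further cell types gave 1 call, *Clec9a*, of 5 dendritic cell genes led by it and *Xcr1*. *Clec9a* averaged 333 ± 4.40 CPM after iron citrate and 197 ± 22.05 CPM after buffer (edgeR adjusted p = 0.0221). Over all tested targets 0.555% were called. The 5 dendritic cell genes did not move together. Their median log2 fold change was -0.03 and 2 were positive, *Clec9a* (0.76) and *Siglech* (0.69), against -0.54 for *Xcr1*, -0.60 for *Flt3* and -0.03 for *Itgax*. No tested marker was called among 8 of continuous and arterial endothelium (led by *Plvap* and *Efnb2*), 5 of central vein endothelium (*Wnt2* and *Cdh13*), 3 of lymphatic endothelium (*Flt4* and *Reln*), 7 of hepatocytes (*Alb* and *Cyp2e1*), 9 of Kupffer cells and macrophages (*Lyz2* and *Vsig4*), 7 of neutrophils, 6 of T and NK cells, 3 of B cells (*Cd79b* and *Ms4a1*) or 3 of cholangiocytes (*Krt19* and *Epcam*). The cell type lists gave 6 calls without citrate buffer replicate 1, in a fit that called 259 of 14701 tested targets, against 81 of 14601 with all libraries. *Clec9a* kept its call, 4 neutrophil genes (*S100a8*, *S100a9*, *Retnlg* and *Csf3r*) were called higher, with log2 fold changes of 0.78 to 1.23, and *Mcam*, the gene of the sorting marker CD146, was called lower (-0.59, edgeR adjusted p = 0.0135). *Mcam* was the only 1 called of the 13 sinusoidal markers, whose median log2 fold change was -0.05 in that fit. Others of the 13 went both ways, such as *Lyve1* at 0.41 and *Gpr182* at -0.43.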

How the data were processed

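Libraries of sorted liver sinusoidal endothelial cells were made with an Ion AmpliSeq mouse transcriptome kit, per the labels' protocols. The authors deposited whole-number read counts per RefSeq target, 1 file per library. HTSeq 0.6.0 and DESeq2 1.18.1 are named in the submitters' processing notes, while no source used here gives the aligner or genome build. HTSeq's summary lines, 2.15% to 4.60% of the reads in a file, were left out. RefSeq accessions were matched to symbols with the reference tables, 18128 with the version, 4324 without it and 110 through a second table, and 1368 had no match.

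The 2 groups were compared in edgeR 4.0.16 (R 4.3.3), with filterByExpr, TMM factors and a robust quasi-likelihood F-test, and p-values were adjusted by Benjamini-Hochberg over the 14601 targets left. SEs and 95% intervals come from the F statistic and its degrees of freedom. CPM use TMM-scaled library sizes, and log2 CPM a prior count of 2. Exact permutation tests were two-sided over all 70 splits. Alternatives used DESeq2 1.42.0 and limma 3.58.1. The steps were tested on simulated data. There edgeR called 26 of 100 2-fold and 75 of 100 4-fold changes, so most 2-fold changes were missed. DESeq2 called 45 and 88 of them, and limma-voom 25 and 73. Of 14284 unchanged genes, edgeR called 5, DESeq2 48 and limma-voom 3. The simulated counts used 1 dispersion per gene for all libraries, so no library stood apart in them as citrate buffer replicate 1 did here. Some changed genes did not pass the low-count filter there and count as missed. Library pairs within a group had a chi-square per degree of freedom of at least 8.34, so none was a duplicate. The labels name 1 mouse per library and do not say how independent the mice were, and p-values then cover only the spread among these libraries, which may be technical. Amplicon reads carry no molecular identifiers.

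The 9 genes and all lists were chosen with earlier results of these data known. The genes named are the 9, every called gene of a list, the 3 (or 5, for the Krüppel-like, nitric oxide, endothelin and renin-angiotensin lists) most abundant of each pathway list, the 2 most abundant of each cell type list, and the 2 tested targets nearest in pattern to each of the 9. Others are named for the count they explain, after their values were seen. The list counts without citrate buffer replicate 1 were added after seeing the data. A few genes that this rule names are not reported here. Promoter sequences are RefSeq's for GRCm38.p6, with 8 of the 9 genes matched, and *Nos3* is named only. The planned protein comparison was not run.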

Additional observations from a re-analysis of the deposited data

Results flagged for a closer look

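*Nr4a1* in iron citrate replicate 3 lay far from its group. At 173 CPM, its gap to the next library was 0.899 of the group's whole range, above the 95% critical value of Dixon's test for a group of 4. It was the only 1 flagged of 18 groups of 4 checked (9 genes in 2 groups), and chance flags about 1 in 20. Without that library the *Nr4a1* log2 fold change was 0.53, against 1.31 with it, and neither value passed the edgeR test.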

How the results depend on the processing

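Under 17 alternatives to the fit, 140 of the 153 log2 fold changes of the 9 genes kept their sign and stayed on the same side of an adjusted p of 0.05. The number of genes called, 81 in all 8 libraries, was 365 with DESeq2, 289 with limma-voom and sample weights, 43 with the replicate number as a block and 281 without citrate buffer replicates 1 and 2. Leaving out 1 library at a time gave 46 to 259, the highest without citrate buffer replicate 1. Of the 9 genes 2 were called with DESeq2 (*Klf6* and *Edn1*), 1 without citrate buffer replicates 1 and 2 (*Ednrb*), and 0 in every fit that left out 1 library, in the fit with the replicate block and in the other alternatives. Leaving out 1 library at a time moved the *Klf2* log2 fold change between -0.854 and 0.178, reversed without citrate buffer replicate 4, that of *Nos3* between -0.0901 and 0.0966, reversed without citrate buffer replicate 1 (-0.052) and without iron citrate replicate 3, and that of *Nr4a2* between -0.347 and 0.0981, reversed without citrate buffer replicate 1. *Nos3* also reversed to -0.0667 with library totals, -0.0828 with upper-quartile factors, -0.106 with limma-voom and -0.0954 without citrate buffer replicates 1 and 2, and *Nr4a2* to 0.0841 with limma-voom and 0.338 without citrate buffer replicates 1 and 2. In the permutation test, library totals turned the *Nos3* difference to -0.0732. The cause of these reversals was not tested. Upper-quartile factors and library totals moved the median log2 fold change of all tested targets to -0.12 and -0.11, against -0.01. Deviations of same-numbered libraries from their group means correlated across targets at -0.000298, 0.18, 0.61 and -0.32 for replicates 1 to 4. Not every library correlated best with its own number. With the replicate number as a block the SE was 0.46 for *Nr4a1* and 0.42 for *Klf2*, against 0.63 and 0.62 in the main fit. The SEs of *Ednrb* and *Nr4a2* were larger with the block. Whether replicate numbers pair the libraries cannot be told from these values. At 26 to 86 reads per library, *Ace* was the gene most limited by depth.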
